A study of Homo sapiens with 10 samples.

Results

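Transforming growth factor β (TGF-β) is a family of secreted ligands that are held in a latent form, bound to matrix and to cell surface proteins, until they are released. Active ligand brings together the type II receptor TGFBR2 and the type I receptor TGFBR1, which are both kinases. Through this pair SMAD proteins are phosphorylated, and the SMAD complexes then act on target genes. Macrophages both release TGF-β and respond to it, and the pathway is known for its part in matrix deposition, wound repair and the restraint of inflammation. The 10 genes described here are 4 ligand genes (TGFB1, TGFB2, TGFB3 and INHBA), the 2 receptor genes TGFBR1 and TGFBR2, the latency and matrix genes LTBP1 and TGFBI, and the feedback genes SMAD7 and SKIL. They were taken as the rows of the array table that carry one of these symbols alone. Each gene had exactly 1 such row among the 19460 transcript clusters with 1 gene symbol. Rows with more than 1 symbol were not searched, though they are among the 21214 clusters with a gene symbol. A transcript cluster is a set of probes on the array whose values are summarized together, usually for one gene. The genes were picked from a pathway with the behavior of some members already known, and the study lists TGFB2 and TGFB3 among the genes it found changed. Their values are therefore a description of these arrays and not independent evidence that the pathway responds.

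The cells were THP-1, a human monocytic leukemia line that takes on a macrophage form under PMA, a phorbol ester. All 10 arrays, DMSO arrays included, come from cells given PMA for 24 h and then treated for 24 h. The treatments were punicalagin at 10 µM on cells of passages 6, 7 and 8 (n = 3), myricetin on passages 7 and 8 (n = 2), quercetin on passages 7 and 8 (n = 2), and DMSO, the solvent, on passages 6, 7 and 8 (n = 3). The doses of punicalagin and PMA (160 nM) are those of the study's methods, which describe punicalagin and DMSO cells alone. The doses of myricetin and quercetin are not given in the sources used here, nor is the PMA dose for their arrays. Punicalagin is an ellagitannin of pomegranate, a large polyphenol. Myricetin and quercetin are plant flavonols, and myricetin carries 1 more hydroxyl group. With doses unknown, a difference between the compounds cannot be told apart from a difference in dose. RNA was read on Affymetrix Human Gene 1.0 ST arrays, and every level below is a log2 intensity as the authors normalized it, so that a difference of 1 is a 2-fold difference. Levels of different genes come from different probes and are not compared with each other. The replicates are passages of 1 cell line, and p-values measure the spread between these cultures.

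Any 2 of the arrays correlated between 0.96 and 0.99 over all clusters. The DMSO array of passage 6 stood apart most, with a mean correlation of 0.969 with the others against 0.977 to 0.983 for the rest. In that array 13 of 14 measured immediate early and NF-κB genes lay above the mean of the other DMSO arrays. The median difference over the 14 genes was 0.94. Of 11 measured macrophage markers, 7 lay above the upper quartile of every array, whereas MRC1, which encodes the mannose receptor, lay below the median of every array. All 4 T cell markers lay below the median of every array, as did 3 of 6 fibroblast, 3 of 4 endothelial, 2 of 4 epithelial and 1 of 3 platelet markers. The epithelial marker KRT18, at 7.13 to 7.91, lay above the upper quartile of every array. No fibroblast, endothelial, T cell or platelet marker did so. Single markers of other cells moved with the compounds. PPBP, a platelet chemokine gene, rose with quercetin by 2.01 against DMSO (limma, adjusted p = 0.000592) and the fibroblast marker PDGFRA by 1.23 (adjusted p = 0.00446), whereas the endothelial marker VWF rose with punicalagin by 0.86 (adjusted p = 0.0172). CD163, a scavenger receptor of macrophages, rose by 1.89 with punicalagin (adjusted p = 0.0027) and by 1.85 with quercetin (adjusted p = 0.000414), and CD68 by 1.13 with quercetin (adjusted p = 0.0103). The mean of the 3 platelet markers lay between 4.07 and 4.16 in the punicalagin, between 4.06 and 4.20 in the myricetin, between 4.66 and 4.86 in the quercetin and between 3.91 and 4.13 in the DMSO arrays. The mean of the 6 fibroblast markers lay between 4.26 and 4.43 in the punicalagin, between 4.30 and 4.35 in the myricetin, at 4.42 in both quercetin and between 4.23 and 4.25 in the DMSO arrays. The part of these markers in the results was not tested. In bulk RNA a change in the number of cells that make a transcript and a change in the amount per cell cannot be told apart.

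The promoters of the 3 TGF-β genes differ in sequence. The stretches below are shown for the 3 ligand genes that passed the test with at least 1 compound (TGFB2, TGFB3 and INHBA) and for TGFB1, which passed with none. TGFB2 and TGFB3 hold the letters of a TATA box with those of a cyclic AMP response element close before them, INHBA holds the TATA box letters alone, and the window of TGFB1 holds neither. Sequences are from the RefSeq promoter table (GRCh38.p14), written 5′ to 3′ on the strand of the gene. Capitals mark TATAAA, the letters of the TATA box, as well as ACGTCA, core letters of the cyclic AMP response element, both searched on both strands.
TGFB1: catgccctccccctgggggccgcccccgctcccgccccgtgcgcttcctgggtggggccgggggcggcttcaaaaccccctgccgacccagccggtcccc
TGFB2: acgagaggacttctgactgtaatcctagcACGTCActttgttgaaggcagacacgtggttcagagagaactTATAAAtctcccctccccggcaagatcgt
TGFB3: agagACGTCAtgggagggaggTATAAAatt
INHBA: gtgtacaaataagtagtacagTATAAAact
The TGFB1 run is chr19:41353923-41354022 on the minus strand and the TGFB2 run is chr1:218345236-218345335 on the plus strand, each the 100 bases before the annotated start. The TGFB3 run is chr14:75982017-75982046 and the INHBA run chr7:41703093-41703122, both on the minus strand and both 30 bases around the TATA letters. TATAAA begins at position -29 from the start in TGFB2, at -30 in TGFB3 and at -11 in INHBA. The INHBA start used is not at the annotated edge of the gene, and neither is this TGFB3 start. ACGTCA begins at -71 in TGFB2 and at -47 in TGFB3. TGFB3 has a second annotated start farther upstream, whose window holds neither run. Over all 35116 promoter windows of 300 bases in the table, 11.5% hold TATAAA, 7.98% hold ACGTCA and 0.795% hold both. The SMAD box letters CAGAC occur in 45.3% of windows. Among the other genes of the 10, some that passed with no compound in the fits reported hold these letters too. SMAD7 holds TATAAA at -35 from an annotated start, and SKIL and LTBP1 hold ACGTCA, whereas TGFBI holds neither run. No window of TGFBR1 or TGFBR2, which passed with quercetin, holds either run. Whether the letters go with a response to the compounds was not tested. A match of letters is a description of the window, and binding of a factor was not measured.

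**Figure D1:**
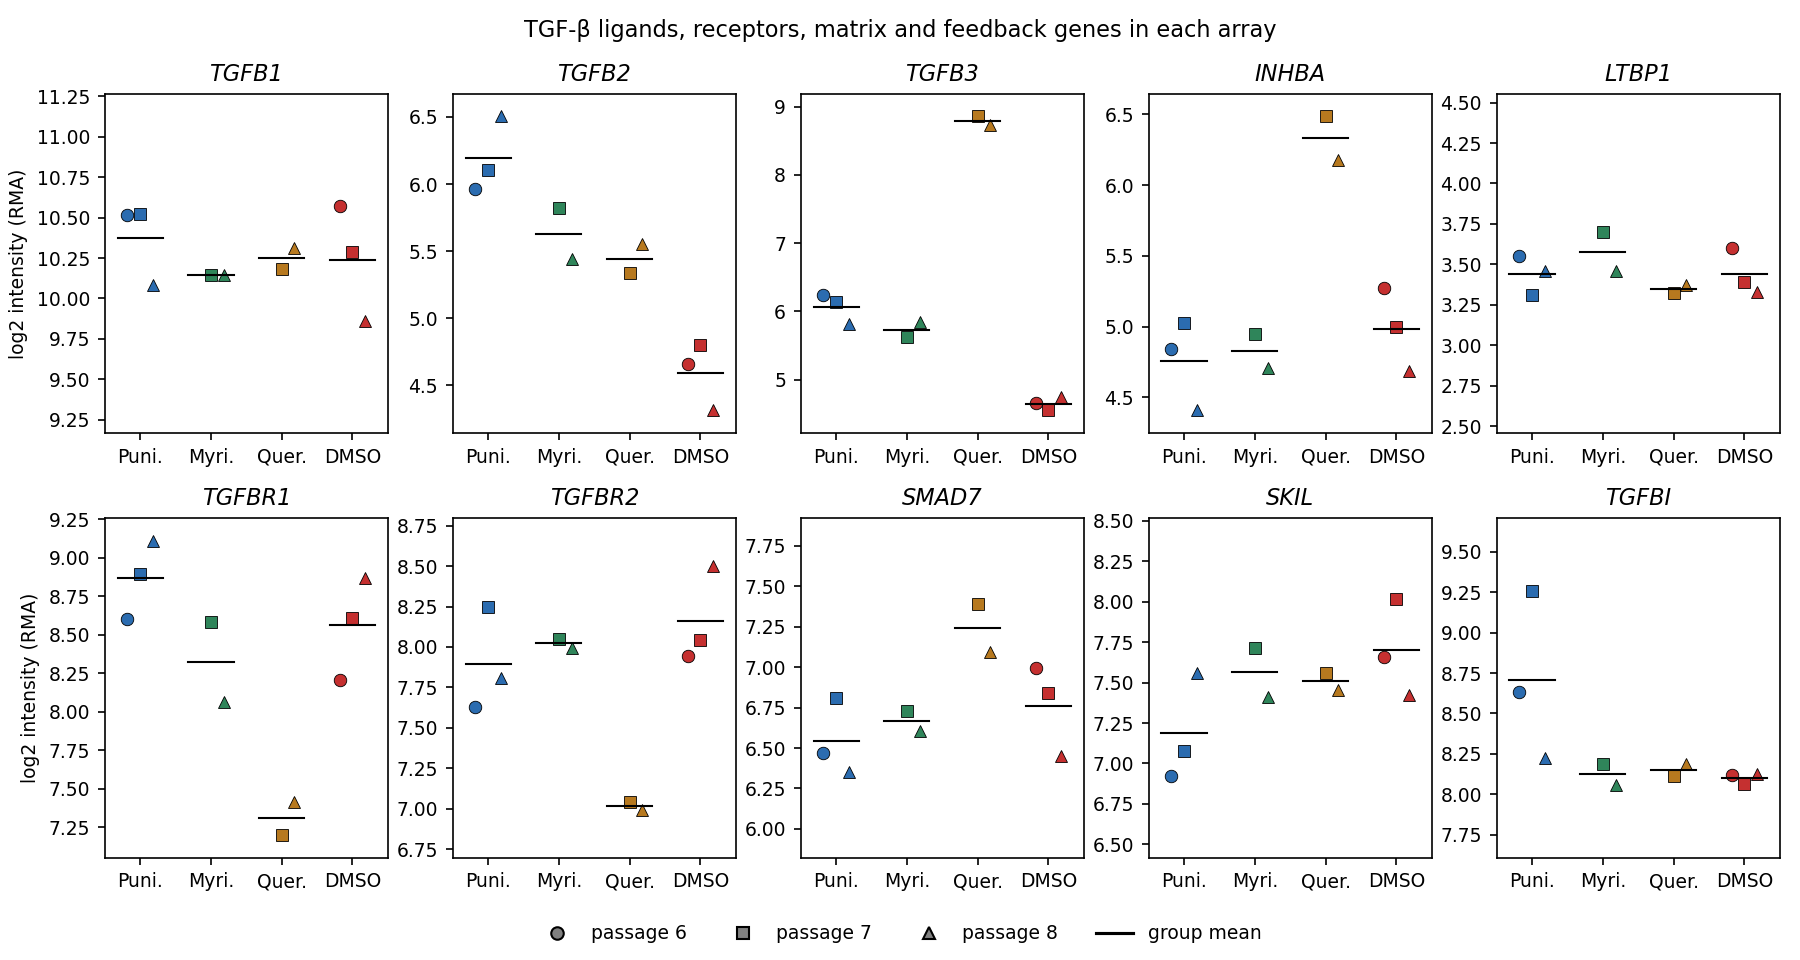
Log2 intensity (vertical axis, a separate scale for each gene) of the 10 genes in each of the 10 arrays, with punicalagin (Puni.), myricetin (Myri.), quercetin (Quer.) and DMSO from left to right. Symbols give the passage and the line is the group mean, so that TGFB3 is seen at 8.73 and 8.86 with quercetin and no higher than 4.74 with DMSO.

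TGFB3, which encodes one of the 3 TGF-β ligands, was the gene of the 10 whose group means spread most, over 4.15. Its level was 6.24, 6.14 and 5.82 in the punicalagin arrays of passages 6, 7 and 8, 5.62 and 5.84 in the myricetin arrays of passages 7 and 8, 8.86 and 8.73 in the quercetin arrays, and 4.65, 4.55 and 4.74 in the DMSO arrays. Every treated array lay above every DMSO array, and the quercetin arrays lay far above all the rest. All 3 DMSO arrays, and none of the treated ones, had TGFB3 below the median of the array. Against DMSO, TGFB3 rose with quercetin by a log2 change of 4.15 (standard error 0.16), or 17.7-fold (limma, adjusted p = 3.25e-07). This was the 4th largest rise of the 21214 clusters tested. With punicalagin it rose by 1.42 (standard error 0.16), or 2.67-fold (adjusted p = 0.00308), and with myricetin by 1.08 (standard error 0.16), or 2.12-fold (adjusted p = 0.0118). The quercetin rise kept its call and lay between 4.09 and 4.21 under every alternative run, each array left out included. The myricetin rise missed the threshold without the DMSO array of passage 7 (adjusted p = 0.0517) and without the myricetin array of passage 7 (0.126) or passage 8 (0.224), which leaves a single myricetin array that is assumed to vary like the other groups.

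TGFB2, which encodes another of the 3 ligands, followed a different order, with punicalagin highest. Its level was 5.97, 6.11 and 6.50 in the punicalagin arrays of passages 6, 7 and 8, 5.82 and 5.44 in the myricetin arrays of passages 7 and 8, 5.34 and 5.55 in the quercetin arrays, and 4.66, 4.80 and 4.31 in the DMSO arrays. No treated array overlapped with DMSO, the punicalagin arrays lay above all others, and the myricetin and quercetin arrays overlapped. As with TGFB3, the level of TGFB2 was below the array median in all 3 DMSO arrays and in none of the treated ones. TGFB2 rose with punicalagin by 1.60 (standard error 0.19), or 3.04-fold (limma, adjusted p = 0.0046), and with quercetin by 0.86 (standard error 0.20), or 1.81-fold (adjusted p = 0.0392). With myricetin the difference was 1.04 (standard error 0.20), or 2.06-fold, and narrowly missed the threshold (adjusted p = 0.054). Without the DMSO array of passage 6 it passed (0.037), and without the punicalagin array of passage 8 as well (0.0362). The call for quercetin was the weakest of the set. With passage as a block its adjusted p was 0.0716, and it missed the threshold without the DMSO array of passage 8 (0.111), the punicalagin array of passage 7 (0.0561), either myricetin array (0.0554 each) or the quercetin array of passage 7 (0.166) or passage 8 (0.38).

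TGFB1, the ligand gene that is usually the main one in blood cells, did not pass the test with any compound. Its level was 10.5, 10.5 and 10.1 in the punicalagin arrays, 10.1 and 10.1 in the myricetin arrays, 10.2 and 10.3 in the quercetin arrays and 10.6, 10.3 and 9.86 in the DMSO arrays. The arrays of the 3 treatments all lay inside the range of the DMSO arrays. The difference from DMSO was 0.13 with punicalagin (95% interval -0.35 to 0.61), -0.09 with myricetin (-0.55 to 0.36) and 0.01 with quercetin (-0.44 to 0.46). These intervals leave room for changes up to their bounds in either direction.

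INHBA encodes the βA subunit of activin and inhibin, ligands of the same superfamily that use their own receptors. It passed the test against DMSO with quercetin and with neither other compound. Its level was 4.85, 5.03 and 4.41 in the punicalagin arrays, 4.95 and 4.71 in the myricetin arrays, 6.49 and 6.17 in the quercetin arrays and 5.27, 4.99 and 4.69 in the DMSO arrays. Both quercetin arrays lay above all 8 others, which overlapped. INHBA rose with quercetin by 1.35 (standard error 0.22), or 2.54-fold (limma, adjusted p = 0.00452), and without the quercetin array of passage 7 the adjusted p was 0.0904. With punicalagin it differed from DMSO by -0.22 (95% interval -0.70 to 0.25) and with myricetin by -0.16 (-0.63 to 0.32). INHBA lay below the array median in 3 of 3 punicalagin, 2 of 2 myricetin and 2 of 3 DMSO arrays and in none of the quercetin arrays. INHBA was 0.43 higher in the passage 6 DMSO array than the mean of the other DMSO arrays, and without this array the quercetin change had an adjusted p of 0.00144. The same array differed more from the other DMSO arrays in TGFB1 (0.50) and TGFBR1 (-0.53).

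The receptor genes fell with quercetin. TGFBR1, which encodes the type I receptor kinase, had 8.60, 8.90 and 9.11 in the punicalagin arrays, 8.58 and 8.06 in the myricetin arrays, 7.20 and 7.41 in the quercetin arrays and 8.20, 8.61 and 8.87 in the DMSO arrays. TGFBR2, which encodes the ligand-binding type II receptor, had 7.63, 8.25 and 7.81 in the punicalagin arrays, 8.05 and 8.00 in the myricetin arrays, 7.04 and 6.99 in the quercetin arrays and 7.94, 8.04 and 8.50 in the DMSO arrays. For both genes the quercetin arrays lay below all 8 others, and the punicalagin arrays overlapped with DMSO. Against DMSO, TGFBR1 fell with quercetin by 1.25 on the log2 scale (standard error 0.23), which is 2.38-fold lower (limma, adjusted p = 0.00919). TGFBR2 fell by 1.14 (standard error 0.20), which is 2.21-fold lower (adjusted p = 0.00868). Among the falls of all 21214 clusters TGFBR1 ranked 40 and TGFBR2 ranked 65. The differences with punicalagin were 0.31 for TGFBR1 (95% interval -0.16 to 0.78) and -0.27 for TGFBR2 (-0.74 to 0.21), and with myricetin -0.24 (-0.73 to 0.26) and -0.14 (-0.59 to 0.31). Both calls with quercetin were lost when a quercetin array was left out. For TGFBR1 the adjusted p was 0.135 without passage 7 and 0.0739 without passage 8, and for TGFBR2 it was 0.0906 and 0.116.

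The genes of latency, matrix and feedback passed the test with none of the compounds in the fits reported. LTBP1, whose product tethers latent TGF-β to matrix, lay below the lower quartile of its array in 9 of 10 arrays, and the deposited table has no detection calls, so whether it stood above background is not known. It differed from DMSO by -0.0002 with punicalagin, 0.14 with myricetin and -0.09 with quercetin. TGFBI, a secreted matrix protein named for its induction by TGF-β, had 8.63, 9.26 and 8.23 in the punicalagin arrays, 8.19 and 8.06 in the myricetin arrays, 8.11 and 8.19 in the quercetin arrays and 8.12, 8.07 and 8.12 in the DMSO arrays. The punicalagin arrays did not overlap with DMSO, but they spread by an SD of 0.52 against 0.03 in DMSO, and the difference of 0.60 had an adjusted p of 0.332. SMAD7, an inhibitory SMAD that the pathway itself induces, had 6.47, 6.81 and 6.35 in the punicalagin arrays, 6.73 and 6.61 in the myricetin arrays, 7.39 and 7.09 in the quercetin arrays and 6.99, 6.84 and 6.45 in the DMSO arrays. The quercetin arrays lay above all others, and the difference from DMSO of 0.48 had an adjusted p of 0.259. It passed with array weights (0.0374) and with passages 7 and 8 only and passage as a block (0.0464). SKIL, also called SnoN, represses SMAD target genes. It had 6.92, 7.08 and 7.56 in the punicalagin arrays, 7.71 and 7.41 in the myricetin arrays, 7.56 and 7.45 in the quercetin arrays and 7.66, 8.01 and 7.43 in the DMSO arrays. Its groups overlapped, and it differed from DMSO by -0.51 with punicalagin (adjusted p = 0.365).

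**Figure D2:**
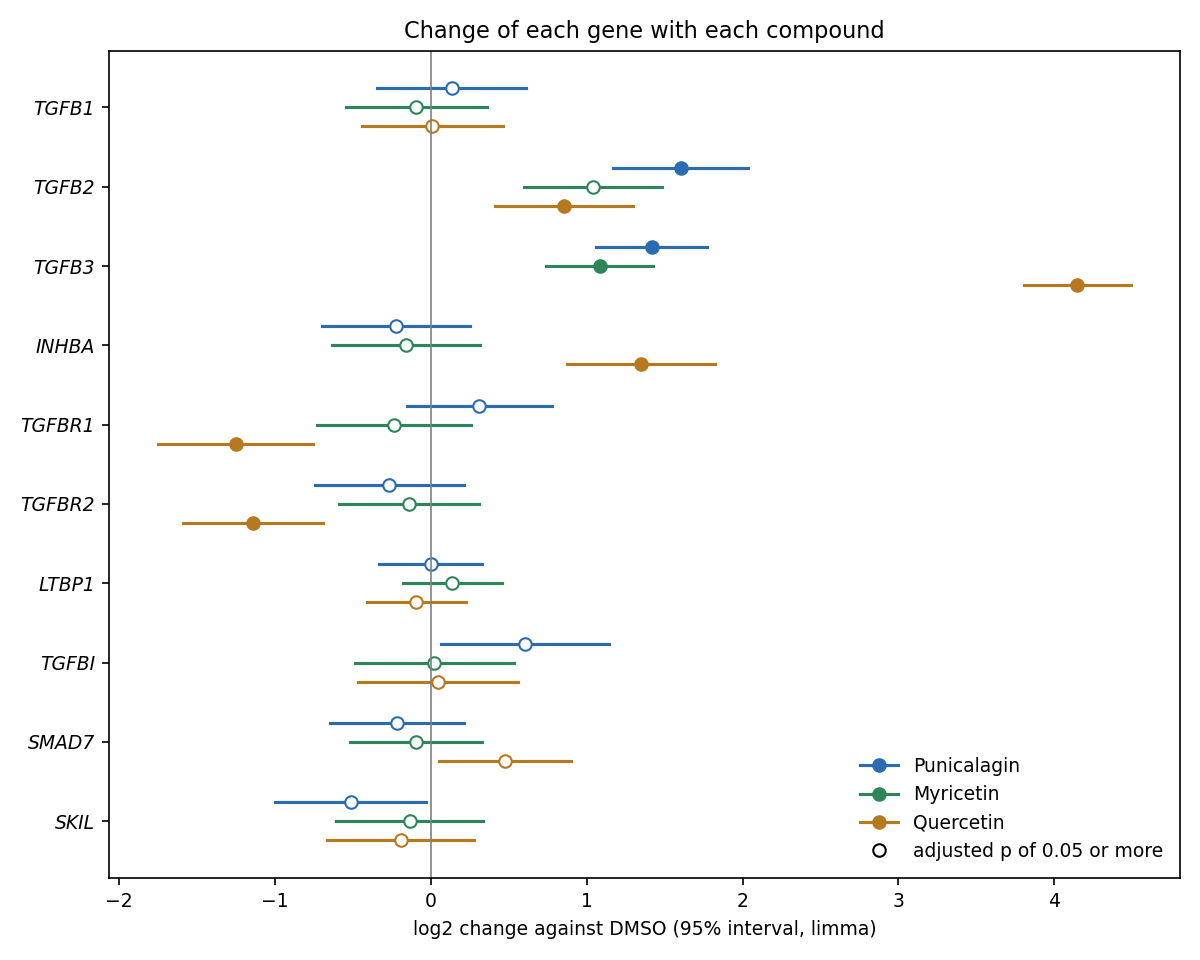
Log2 change of each gene against DMSO (horizontal axis) with punicalagin, myricetin and quercetin, as the limma estimate with its 95% interval. Filled points passed the threshold of 0.05 on the adjusted p, and the change of 4.15 in TGFB3 with quercetin lies apart from the others.

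By count, 2 of the 10 genes were higher and 0 lower with punicalagin against DMSO, where 2.13% of all clusters tested were called higher and 0.198% lower. With myricetin 1 was higher and 0 lower, where 0.438% of all clusters were called higher and 0.0707% lower. With quercetin 3 were higher and 2 lower, where 2.8% of all clusters were called higher and 1.13% lower. The median change of the 10 genes was 0.07 with punicalagin, -0.09 with myricetin and 0.03 with quercetin, beside -0.05, 0.00 and -0.04 over all clusters. An unadjusted p under 0.05 was found for 4 of the 10 genes with punicalagin, 2 with myricetin and 6 with quercetin, where 12.3%, 8.62% and 14.8% of all clusters had one. Without the DMSO array of passage 6 all 8 of these calls were kept, with adjusted p between 1.64e-07 and 0.0297. The 3 comparisons share the DMSO arrays and are not independent of each other.

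The compounds were also set against each other, on all 10 arrays with a shared spread. Punicalagin and myricetin were not told apart at any of the 10 genes (0 higher, 0 lower, where 0.519% and 0.00943% of all clusters were called), while 3 of them had an unadjusted p under 0.05, where 8.92% of all clusters had one. TGFB3 differed between punicalagin and myricetin by 0.34 (95% interval -0.01 to 0.68, limma, adjusted p = 0.576) and TGFB2 by 0.56 (0.12 to 1.01, adjusted p = 0.361), and these intervals allow a difference of about 2-fold in TGFB2. Punicalagin against quercetin gave 2 genes higher and 2 lower, where 2.06% and 1.85% of all clusters were called. TGFB3 was lower with punicalagin than with quercetin by a log2 change of -2.73 (adjusted p = 3.34e-05) and INHBA by -1.57 (adjusted p = 0.00311). TGFBR1 was higher with punicalagin than with quercetin by 1.56 (adjusted p = 0.00415) and TGFBR2 by 0.88 (adjusted p = 0.0365). TGFB2 differed between punicalagin and quercetin by 0.75 and missed the threshold (adjusted p = 0.0711), though it passed without the DMSO array of passage 6 (0.0449). SMAD7 differed by -0.70 (adjusted p = 0.0759, and 0.0312 with passage as a block), and it passed without the DMSO array of passage 6 (0.0334) or passage 8 (0.0445). Without the quercetin array of passage 7 the calls for INHBA (0.0818), TGFBR1 (0.094) and TGFBR2 (0.284) were lost. The call for TGFBR2 was also lost without the quercetin array of passage 8 (0.242), the punicalagin array of passage 7 (0.0904) or 8 (0.0563), or either myricetin array (0.0679 each).

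Myricetin and quercetin, the pair of flavonols, differed most in TGFB3. It was lower with myricetin than with quercetin by a log2 change of -3.07 (standard error 0.17, limma, adjusted p = 2.55e-05), an 8.37-fold difference. INHBA was lower by -1.50 (adjusted p = 0.00966), and this call was lost when either myricetin or either quercetin array was left out (0.0636 to 0.138). These were the 2 genes called lower, where 1.16% of all clusters were called lower. No gene of the 10 was called higher, where 0.537% of all clusters were, but the receptors lay close to the threshold. TGFBR1 was 1.02 higher with myricetin than with quercetin (adjusted p = 0.0678, and 0.0265 with passage as a block) and TGFBR2 was 1.00 higher (0.0507, and 0.026 with the block). Both passed without the DMSO array of passage 6 (0.0193 and 0.0195) or passage 8 (0.0487 and 0.025), and TGFBR2 also without the punicalagin array of passage 7 (0.0331). TGFB2 differed between myricetin and quercetin by 0.19 (95% interval -0.30 to 0.67, adjusted p = 0.822).

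The rest of the pathway was read from a list of 89 further genes, of which 87 were measured. The ligand, receptor, SMAD, latency, inhibitor and response groups are described in turn. Of the 87, punicalagin had 5 higher and 0 lower, myricetin 1 higher and 0 lower, and quercetin 12 higher and 1 lower. The shares of all clusters called higher and lower were the 2.13% and 0.198%, 0.438% and 0.0707%, and 2.8% and 1.13% given above. The median change of the 87 was -0.04, -0.03 and -0.02 in that order, close to the medians over all clusters given above. The genes past the threshold lay mostly among response genes and among genes of latency and activation.

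Of 16 other ligand genes, 2 rose with quercetin (2.8% of all clusters did) and none passed with punicalagin or myricetin. BMP6, a bone morphogenetic protein, had 6.71 and 6.55 in the quercetin arrays against 5.41, 5.18 and 5.09 in the DMSO arrays, a change of 1.40 (limma, adjusted p = 0.000613). GDF15, a stress-induced cytokine, had 10.7 and 11.2 in the quercetin arrays against 9.96, 8.99 and 8.05 in the DMSO arrays, a change of 1.92 (adjusted p = 0.042) that was lost when any array but the DMSO array of passage 6 or the punicalagin array of passage 8 was left out (0.0619 to 0.385). GDF15 differed from DMSO by 1.83 with punicalagin and missed the threshold (adjusted p = 0.0865), but it passed with passage as a block (0.00699), without the DMSO array of passage 6 (0.0126) and without the punicalagin array of passage 8 (0.0495). With myricetin GDF15 differed by 0.56 (adjusted p = 0.855).

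None of 10 other measured receptor genes passed with any compound in the fits reported. The largest differences from DMSO were 0.86 for ACVR2A, an activin type II receptor, with punicalagin (limma, adjusted p = 0.108), -0.49 for ACVR1 with myricetin (adjusted p = 0.386) and 0.63 for the co-receptor endoglin (ENG) with quercetin (adjusted p = 0.263). ACVR2A passed with passages 7 and 8 only (0.0265, and 0.0414 with passage as a block) and with all 10 arrays in the fit (0.0306), and ENG passed with array weights (0.0122). Among 8 SMAD and SMAD-anchoring genes, SMAD3, a mediator that the TGF-β and activin receptors phosphorylate, fell with quercetin and was the only one called, where 1.13% of all clusters fell. It had 7.11 and 7.19 in the quercetin arrays against 7.94, 7.95 and 7.96 in the DMSO arrays, a fall by 0.80 on the log2 scale (adjusted p = 0.00294, and 0.0664 without the quercetin array of passage 7). The largest differences with the other compounds were -0.34 for SMAD6 with punicalagin (adjusted p = 0.487) and -0.27 for ZFYVE9 with myricetin (adjusted p = 0.891).

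Of 14 genes of latency and activation, 2 rose with punicalagin and 3 with quercetin, where 2.13% and 2.8% of all clusters rose. NRROS, which anchors latent TGF-β on the surface of myeloid cells, had 10.5, 10.4 and 10.2 in the punicalagin arrays against 9.26, 9.12 and 9.60 in the DMSO arrays, a change of 1.03 (limma, adjusted p = 0.0176). That call was lost without the DMSO array of passage 7 (0.0821) or the punicalagin array of passage 6 (0.104) or 7 (0.103), and with all clusters tested (0.0574). ITGB5, the β5 integrin chain, whose pairing with the αV chain can activate TGF-β, rose with both compounds, by 1.24 with punicalagin (adjusted p = 0.00335) and by 1.10 with quercetin (adjusted p = 0.00109). ITGAV, the αV chain, rose with quercetin by 0.71 (adjusted p = 0.0284, and 0.0517 with passage as a block), and FURIN, a protease that cleaves the TGF-β precursor, by 0.90 (adjusted p = 0.0401). With punicalagin both missed the threshold in the fit reported, at a difference from DMSO of 0.68 for ITGAV (adjusted p = 0.0588) and 0.71 for FURIN (adjusted p = 0.164). Leaving out single arrays ended the call of ITGAV in 5 cases (the DMSO array of passage 8 and each myricetin and quercetin array, 0.0544 to 0.392) and that of FURIN in 7 (these 5, the DMSO array of passage 7 and the punicalagin array of passage 6, 0.0658 to 0.399). With myricetin the largest difference was 0.66 for THBS1, which encodes thrombospondin 1 (adjusted p = 0.206, and 0.0236 with array weights).

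Of 16 inhibitor genes, 1 rose with quercetin, as did 2.8% of all clusters. NEDD4L, a ubiquitin ligase that acts on SMAD proteins, had 7.38 and 7.17 in the quercetin arrays against 6.16, 6.07 and 5.45 in the DMSO arrays, a change of 1.38 (limma, adjusted p = 0.00245, and 0.0553 without the quercetin array of passage 7). SKI, the relative of SKIL, was the gene of the 16 that differed most with punicalagin, by -0.54 (adjusted p = 0.136), and with myricetin, by -0.56 (adjusted p = 0.187). With quercetin SKI differed by a like amount, -0.53 (adjusted p = 0.0783). Every treated array lay below every DMSO array for SKI. None of these differences passed in the fits reported, though SKI with punicalagin did with all 10 arrays in the fit (0.0383).

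Of 23 measured response genes, 3 were called higher with punicalagin, 1 with myricetin and 6 with quercetin, and none was called lower. Of all clusters 2.13%, 0.438% and 2.8% were called higher with these compounds. Called or not, the change was above 0 for 8 of the 23 genes with punicalagin, 8 with myricetin and 15 with quercetin. The median change of the 23 was -0.06, -0.04 and 0.25 in that order, beside -0.05, 0.00 and -0.04 over all clusters. FN1, which encodes fibronectin, rose with all 3 compounds. It had 6.18, 6.95 and 6.26 in the punicalagin arrays, 6.07 and 6.09 in the myricetin arrays, 7.29 and 7.22 in the quercetin arrays and 4.74, 4.40 and 4.31 in the DMSO arrays. The change was 1.98 with punicalagin (limma, adjusted p = 0.00338), 1.60 with myricetin (adjusted p = 0.00907, but 0.152 and 0.15 without the array of passage 7 and 8) and 2.77 with quercetin (adjusted p = 4.92e-05). COL4A1, a basement membrane collagen chain, rose by 1.83 with punicalagin (adjusted p = 0.00129) and by 2.40 with quercetin (adjusted p = 3.85e-05). CXCR4, a chemokine receptor, rose by 1.23 with punicalagin (adjusted p = 0.0332) and by 1.86 with quercetin (adjusted p = 0.00202). The punicalagin call for CXCR4 was lost without the DMSO array of passage 7 or 8 (0.0821 and 0.0883) or the punicalagin array of passage 6 or 7 (0.164 and 0.179), with all clusters tested (0.098) and with passages 7 and 8 only and passage as a block (0.0773), and the quercetin call without the quercetin array of passage 8 (0.0524). The other 3 genes that rose with quercetin, named after their values were seen, were SNAI2 (1.27), SPHK1 (1.58) and HMOX1 (1.07). All 3 calls were lost without the quercetin array of passage 7, those of SPHK1 and HMOX1 also without that of passage 8, and that of HMOX1 also without the DMSO array of passage 8. Of the genes that rose, FN1 and COL4A1 build matrix, CXCR4 and SNAI2 are known from cell migration, SPHK1 makes the lipid mediator sphingosine 1-phosphate and HMOX1 degrades heme. The list was drawn up from general knowledge of TGF-β targets with earlier results known, and most of its genes are induced by other signals as well.

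**Figure D3:**
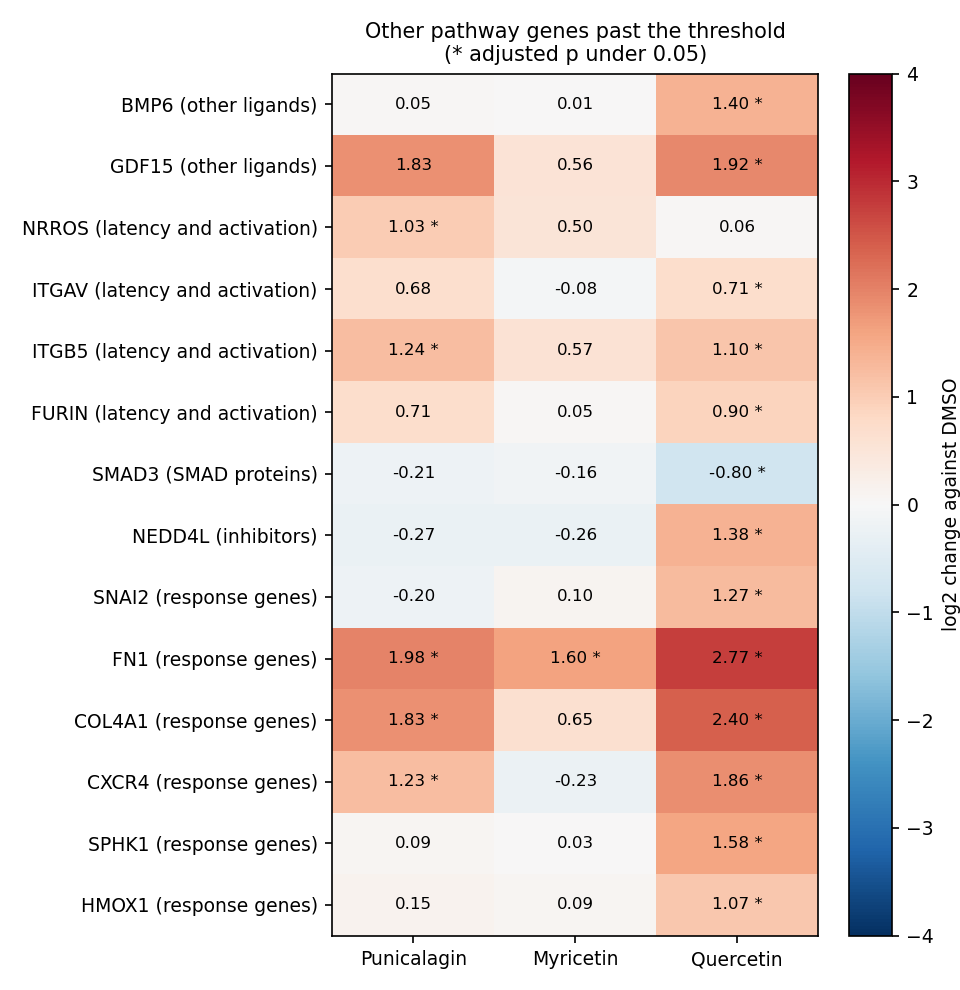
Log2 change against DMSO (color and number in each cell) with punicalagin, myricetin and quercetin for the 14 further pathway genes past the threshold with at least 1 compound, with their group in brackets. A star marks an adjusted p under 0.05, and quercetin has 13 of the 14 genes past the threshold, all but NRROS.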

How the data were processed

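The authors scanned Affymetrix Human Gene 1.0 ST arrays and deposited log2 intensities per transcript cluster after RMA (background correction, quantile normalization and summary of probes). Expression Console from Affymetrix, RMA and Partek 7.0 appear in the submitters' processing notes. Joint normalization of the 10 arrays was not given in the sources used here, nor was a genome build for the probes. Nothing was added to the deposited values, whose array medians lay between 5.14 and 5.25. The platform annotation gives 1 symbol to 19460 of 33297 clusters, more than 1 to 1754 and no symbol to 12083. Tests covered the 21214 clusters that carry a symbol.

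Groups and passages came from the labels. Differences were fitted with limma 3.58.1 in R 4.3.3 (lmFit, eBayes) and adjusted by Benjamini and Hochberg within each comparison across every tested cluster, and 0.05 was the threshold. The fit of punicalagin and DMSO used their 6 arrays, and the other comparisons used all 10 arrays with a shared spread. Every p given is from limma unless the methods' t-test is named. The number of arrays limits the precision. The members, gene lists and tests were chosen with earlier results of these data known. All 10 members were named, and from each further group up to 3 genes with the largest change past the threshold, or 1 where none passed. Genes of the lists without a row of their own, such as BMPR1A, EGR2 and CD33, were not used here. Groups share the passage numbers of the labels. Deviations from group means correlated at 0.163, -0.189 and 0.229 between punicalagin and DMSO arrays of passages 6, 7 and 8, and between -0.349 and 0.273 between different passages. A block for passage was one alternative. The other alternatives were the arrays of passages 7 and 8, trend and robust spread, array weights, all clusters, dim clusters left out, all 10 arrays or the methods' t-test or a 2-fold minimum for punicalagin against DMSO, and each array left out in turn. The study's methods name an analysis of variance, which for 2 groups is the same as a t-test, here called the methods' t-test.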

Additional observations from a re-analysis of the deposited data

How the results depend on the processing

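The 60 changes of the 10 genes (each gene in each of the 6 comparisons) were recomputed under every alternative, which gave 988 values. Of these, 895 kept the direction and the side of the threshold, 32 lost the call, 31 gained one and 30 changed sign. None of the 30 was a called change. With the block for passage, TGFB2 with quercetin lost its call (adjusted p = 0.0716), 3 differences from quercetin gained one, and no other call of the 10 genes changed. The methods' t-test (the study's analysis of variance for 2 groups) with Benjamini-Hochberg adjustment called neither TGFB2 (0.175) nor TGFB3 (0.148) with punicalagin, and 0 clusters in all, with 2264 at an unadjusted p under 0.05. The second row of a gene could not be tried, since each gene has 1 row that carries its symbol alone.

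The number of the 10 genes called changed as follows. With punicalagin against DMSO it was 0 higher under the methods' t-test. With myricetin against DMSO it was 2 higher with passages 7 and 8 only, with trend and robust spread, with array weights and with dim clusters left out, and 0 to 2 when single arrays were left out. With quercetin against DMSO it was 4 higher with array weights (SMAD7 gained) and 2 higher with the block, with all clusters tested or with dim clusters left out, and leaving out single arrays gave 1 to 3 higher and 0 to 2 lower. For punicalagin against quercetin it was 3 higher with passages 7 and 8 only or array weights (TGFB2 gained), 3 lower with the block, with or without passage 6, or array weights (SMAD7 gained), 1 higher with all clusters tested, 1 lower with dim clusters left out (INHBA was left out as dim), and 0 to 3 higher and 1 to 3 lower without single arrays. For myricetin against quercetin it was 2 higher with the block, with passages 7 and 8 only (with or without the block) and with array weights, 3 lower with array weights (SMAD7 gained), and 1 higher and 1 lower with dim clusters left out. Without single arrays it was 0 to 2 higher and 1 to 2 lower.

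Signs that changed were all of uncalled differences. With passages 7 and 8 only, block or not, the change of LTBP1 with punicalagin was 0.025, that of TGFB1 with myricetin 0.074, that of SMAD7 with myricetin 0.022 and TGFBR2 between punicalagin and myricetin 0.0079. With the block TGFB1 with myricetin was 0.025, and with array weights it was 0.0045 and LTBP1 with punicalagin 0.087. Leaving out single arrays moved punicalagin against DMSO between -0.057 and 0.081 for LTBP1 and between -0.057 and 0.30 for TGFB1. For myricetin against DMSO the ranges were -0.28 to 0.074 for TGFB1, -0.25 to 0.022 for SMAD7, -0.29 to 0.021 for SKIL, -0.25 to 0.029 for TGFBR2, -0.043 to 0.086 for TGFBI and -0.50 to 0.024 for TGFBR1. For quercetin against DMSO TGFB1 ranged from -0.18 to 0.18. For punicalagin against myricetin TGFBR2 ranged from -0.30 to 0.0079 and INHBA from -0.20 to 0.11. For myricetin against quercetin TGFB2 ranged from -0.0027 to 0.37, SKIL from -0.093 to 0.21 and TGFBI from -0.089 to 0.040.

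The background counts moved more. Over all alternatives the clusters called higher and lower numbered 0 to 833 and 0 to 230 for punicalagin against DMSO (452 and 42 as reported), 5 to 350 and 0 to 183 for myricetin (93 and 15) and 208 to 1375 and 29 to 1164 for quercetin (593 and 239). They numbered 0 to 457 and 0 to 47 for punicalagin against myricetin (110 and 2), 24 to 1177 and 42 to 1271 for punicalagin against quercetin (437 and 393) and 7 to 1240 and 46 to 1320 for myricetin against quercetin (114 and 247). With the block, the counts that moved by over 1.5 times were 187 and 40 for myricetin against DMSO, 382 lower for quercetin against DMSO, 50 and 26 for punicalagin against myricetin, and 323 and 380 for myricetin against quercetin. The cause was not tested.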

Other observations

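Over the 10 arrays, the genes with 1 symbol whose levels ran most like TGFB3 were MMP8, a neutrophil collagenase (Pearson r = 0.987), NR1H3, the liver X receptor α (0.986), PALLD, an actin-associated protein (0.984), and SLC4A4, a sodium bicarbonate transporter (0.981). MMP8 averaged 4.44 with punicalagin, 4.46 with myricetin, 7.81 with quercetin and 2.83 with DMSO. NR1H3 averaged 6.65, 6.62 and 8.46 with these compounds and 5.49 with DMSO. The genes most like TGFB2 were GALNT16 (0.972), the adrenergic receptor gene ADRA2B (0.960), the actin-severing scinderin gene SCIN (0.953) and the adenylate cyclase gene ADCY1 (0.951). GALNT16 averaged 6.92 with punicalagin, 6.42 with myricetin, 6.06 with quercetin and 5.18 with DMSO. These values describe likeness over 10 arrays that share treatments and passages, and no test was made.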
